A study of Mus musculus with 2 samples.

Results

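The genes described here are those whose annotated transcripts are all small nuclear, small nucleolar, small Cajal body-specific, miscellaneous or catalytic RNAs, and they include the RNAs at the core of the spliceosome, the ribosome-processing machinery and the protein-targeting machinery. RSEM expected counts are estimates in which a read that matches more than one gene is shared out among them. Members were chosen by a mean RSEM expected count of at least 10 over both libraries, which 99 of 3525 such annotated genes reached, out of 55536 annotated genes in all. Because these measured counts selected the members, their levels are given as a description and support nothing about the set. The members were 49 snoRNA, 26 snRNA, 11 misc_RNA, 10 scaRNA and 3 ribozyme genes, and each had a single annotated transcript. Scarna10 is annotated as a snoRNA and is grouped below with the scaRNAs by its symbol. The series profiled gastrocnemius, a muscle of the calf, by total RNA-seq in 2 biological replicates of adult male 5xFAD/CAST mice aged 8 to 10 months. The labels call the mice a cross of 5xFAD with Cast, list both biosamples under a single donor entry and do not say whether the 5xFAD transgenes were present in these animals. As background, 5xFAD mice carry transgenes under the Thy1 promoter, which is active mainly in neurons. The series has no control group, so the spread between the libraries is the only replicate information, no test between groups was possible and nothing below bears on the genotype.

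Small structural RNAs act inside protein complexes. snRNAs base-pair with splice sites in pre-mRNA, box C/D and box H/ACA snoRNAs guide 2′-O-methylation and pseudouridylation of ribosomal RNA or its cleavage, and scaRNAs guide the same modifications on snRNAs in Cajal bodies. The 7SL RNA is the scaffold of the signal recognition particle (SRP), which brings ribosomes making secreted and membrane proteins to the endoplasmic reticulum. 7SK RNA holds the transcription elongation kinase P-TEFb in an inactive complex, and the RNAs of RNase P and RNase MRP are the catalytic or core subunits of enzymes that process tRNA and rRNA precursors. In mammals many snoRNAs are made from introns of host genes, whereas 7SL, 7SK, and the RNase P and MRP RNAs are transcribed from their own genes by RNA polymerase III.

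Annotated genes summed to 35163970 expected counts in replicate 1 and to 35412240 in replicate 2. All 5 fibre markers Myh4, Acta1, Ckm, Tnnt3 and Mylpf were measured, with a median of 16769 ± 642 TPM (read counts per transcript length, scaled to one fixed total in each library; SD, n = 2), and a median of 11.8 ± 2.68 TPM was found for the endothelial markers Pecam1, Cdh5 and Kdr. The summed TPM of endothelial markers was 37.7 in replicate 1 and 25.3 in replicate 2, and that of the adipocyte markers Adipoq, Cidec and Plin1 was 51.5 and 33.3. The leukocyte markers summed to 24.0 and 22.7 TPM, the fibroblast markers to 190 and 188, the Schwann cell markers to 17.1 and 12.7, and the erythroid markers to 277 and 212. No marker listed was at 0 in either library. In bulk tissue a difference in cell numbers and a difference in RNA per cell cannot be told apart, and the part of these markers in the differences between libraries given below was not tested.

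In the RSEM tables the members held 4.04 ± 0.541% of the counts, 3.65% in replicate 1 and 4.42% in replicate 2, and 27.7 ± 2.65% of TPM (SD, n = 2). Nearly all of this was 7SL and 7SK RNA. The 2 identical 7SL genes, Rn7s1 and Rn7s2, held 3.32% of counts in replicate 1 and 4.03% in replicate 2. The other 97 members held 0.333% and 0.389% of counts, which was 2.76% and 3.07% of TPM. By TPM, 26 snRNA entries made up 0.730 ± 0.0922% of the total, the 3 RNase P and MRP entries 0.324 ± 0.0134%, the 13 box C/D entries (Snord and Rnu3 symbols) 0.105 ± 0.0115%, the 11 scaRNA entries 0.0915 ± 0.00191%, and the 10 box H/ACA entries (Snora symbols) 0.0772 ± 0.00550% (SD, n = 2 each). A further 25 snoRNA entries have a symbol of the Gm kind with no named family and took 0.183 ± 0.0106%. Of the members, 39 of 99 (39.4%) reached 100 TPM, beside 646 of the 14361 genes (4.498%) that had 10 or more counts on average, called all counted genes below. TPM divides a count by an effective length, which in the RSEM gene table was the annotated length less 100 for all 99 members. One count was therefore worth 3.77 TPM for the 110-nt Gm27505 and 0.121 TPM for the 414-nt Scarna2, a 31.2-fold difference, so a level per length of the shortest members rests on very few reads.

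**Figure D1:**
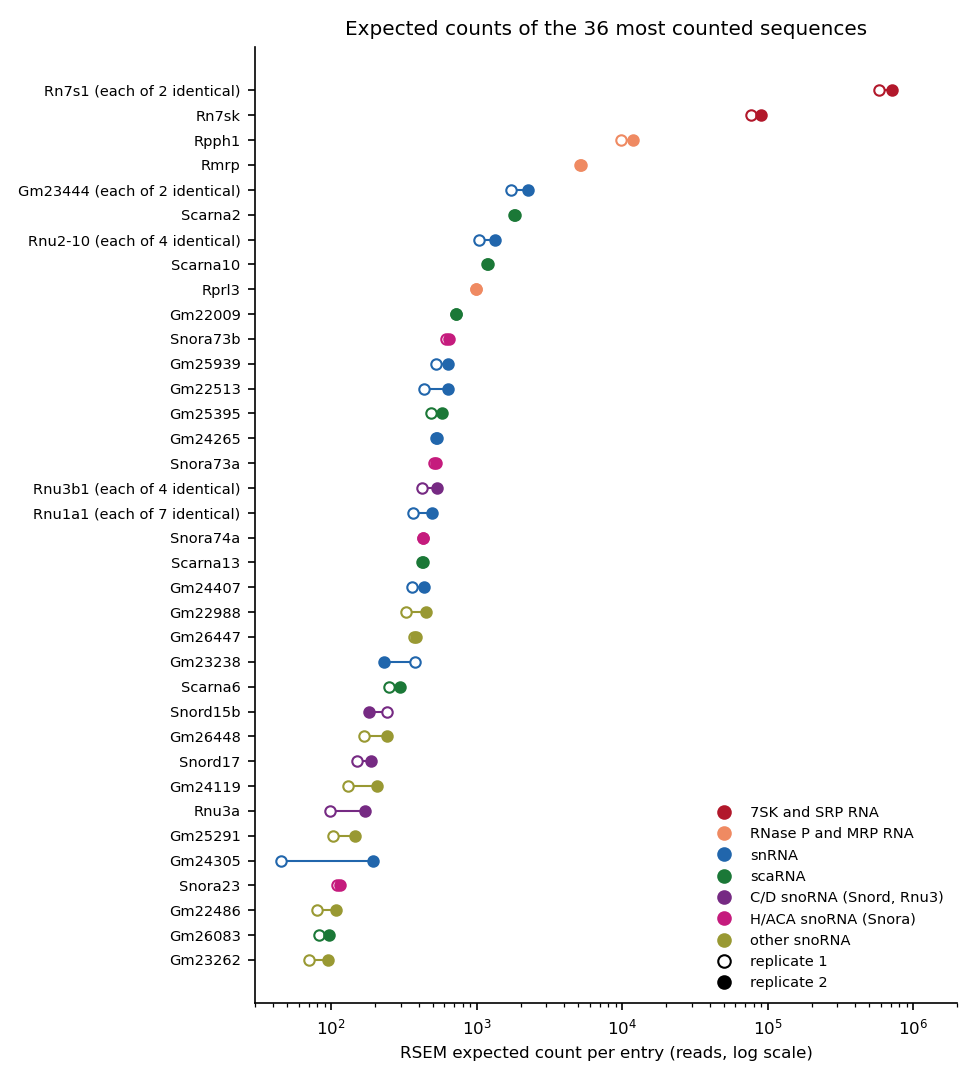
RSEM expected count per entry (log axis) of the 36 distinct sequences with the highest mean count, with replicate 1 as open and replicate 2 as filled points, coloured by RNA class. Entries of identical sequence share a row and each entry has the count shown. Rn7s1 had 584014 and 713841 counts, while Gm23238 and Gm24305 lie far apart between libraries in opposite directions.

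Rn7s1 (chr12:69159295-69159594, plus strand, mm10) and Rn7s2 (chr12:69361182-69361481, minus strand) encode the same 300-nt 7SL RNA. Each of both entries was given 584014 counts in replicate 1 and 713841 in replicate 2, with a posterior SD, the table's own measure of how uncertain that sharing is, of 16890 and 15299. The reads of the shared sequence were thus split evenly and the level of each gene on its own is not known. The sum of both was 1168028 and 1427683 counts. After TMM scaling, which sets the libraries to a common scale from the bulk of the genes, each entry was higher in replicate 2 by 0.34 on the log2 scale, with a 95% interval of 0.34 to 0.35 that covers counting error only. Rn7s6, a 291-nt entry that aligned to Rn7s1 over 214 nt at 98.6% identity, had 81.6 and 59.4 counts, and Gm26461, a 290-nt entry within an intron of Zfp949 with 96.5% identity over 201 nt, had 60.2 and 60.1. The 8 listed SRP proteins were all counted, with a median of 22.0 ± 0.771 TPM (SD, n = 2). Srp14, which with Srp9 binds the Alu domain of 7SL RNA, was highest at 59.3 ± 3.46 TPM, followed by Srp68 at 38.4 ± 0.290 TPM. The median log2 ratio of replicate 2 over replicate 1 among these proteins was 0.07, and 1 of 8, Srp54b, was at least 1.5-fold higher in replicate 2, with reads divided among copies.

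Rn7sk (chr9:78175303-78175633, minus strand, 331 nt) had 77162 counts in replicate 1 and 90581 in replicate 2. It ranked at place 12 by TPM among all counted genes, and it was higher in replicate 2 by 0.28 on the log2 scale (95% interval 0.27 to 0.30). The posterior SD of its count was 2.82 and 3.77, so sharing with other genes left little uncertainty in its count. The 3 members Gm24146, Gm26035 and Gm23820 aligned to it, Gm24146 at 97.5% identity over 238 nt, Gm26035 at 96.1% over 229 nt and Gm23820 at 72.7% over 234 nt. Their counts were small, with 41 and 38 for Gm24146, 26.4 and 26.7 for Gm26035, and 18 and 12 for Gm23820, which lies in an intron of the muscle gene Ampd1. The 7 listed proteins of the 7SK particle and P-TEFb were all measured, with a median of 7.88 ± 0.552 TPM (SD, n = 2). Mepce, the enzyme that caps 7SK RNA, had 10.3 ± 0.643 TPM and the kinase Cdk9 had 9.03 ± 1.22 TPM. None of the 7 proteins was 1.5-fold apart between libraries, and their median log2 ratio was 0.00.

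Rpph1, the RNA of RNase P, which removes the leader of tRNA precursors, lies at chr14:50807449-50807767 on the minus strand. It had 9739 and 11832 counts and was higher in replicate 2 by 0.33 on the log2 scale (95% interval 0.29 to 0.37). Rmrp, the RNA of RNase MRP, which acts in ribosomal RNA processing, had 5115 and 5223 counts. Its 271-nt ribozyme entry (chr4:43492788-43493058, minus strand) is wholly contained in a 281-nt lincRNA entry of the same symbol, which had 2692 and 3120 counts. The posterior SD of the ribozyme entry was 228 and 230 counts, and both entries together had 7807 and 8343, a log2 ratio of 0.15 (95% interval 0.10 to 0.19). Rprl3, a 290-nt ribozyme entry that aligned to Rpph1 over 257 nt at 86.0% identity, had 994 and 989 counts with a log2 ratio of 0.05. Rpph1 was therefore higher in replicate 2 by more than its counting interval, whereas the interval of Rprl3, from -0.08 to 0.17, included 0. Of the 10 listed RNase P and MRP proteins 9 were measured, with a median of 5.36 ± 0.0884 TPM over the list (SD, n = 2), and Rpp25 had 0 counts in both libraries. Rpp14 was highest at 16.0 ± 0.615 TPM and Rpp21 next at 14.96 ± 1.56 TPM. Pop1 was at least 1.5-fold higher in replicate 2, with 58 counts there and 39 in replicate 1.

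U1 snRNA pairs with the 5′ splice site. Among the 26 snRNA members, 12 carried ACTTACCTG within their first 15 bases, the U1 stretch that pairs with the splice site, against 43 of 1141 unmeasured snRNA genes over 100 nt (3.77%). Motifs were searched on the transcript strand only. All motif shares given here count entries one by one, although the 26 snRNA members are 15 distinct sequences and copies that share reads are not independent. Of the 12 U1 entries, 10 were 164 nt long, and 7 of the 10 were identical in sequence: Rnu1a1 and Gm22068 in the chromosome 11 cluster and Gm22317, Gm22634, Gm23804, Gm25679 and Gm26444 on chromosome 12. The other 3 entries of that length differ from them, and all are shown because their counts behaved differently. Sequences are written 5′ to 3′ in lower case and with T for U. Capitals mark ACTTACCTG in Rnu1a1 and, in the other sequences, each base that differs from Rnu1a1; substitutions are written with the Rnu1a1 base first and positions are counted from 1 at the 5′ end:
Rnu1a1: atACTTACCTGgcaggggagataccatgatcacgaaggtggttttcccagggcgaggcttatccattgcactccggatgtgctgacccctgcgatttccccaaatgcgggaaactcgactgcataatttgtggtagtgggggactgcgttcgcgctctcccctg
Gm22513: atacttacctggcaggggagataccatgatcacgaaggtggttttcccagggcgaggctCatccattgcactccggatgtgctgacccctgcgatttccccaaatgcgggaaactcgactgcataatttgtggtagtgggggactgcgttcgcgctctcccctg
Gm24305: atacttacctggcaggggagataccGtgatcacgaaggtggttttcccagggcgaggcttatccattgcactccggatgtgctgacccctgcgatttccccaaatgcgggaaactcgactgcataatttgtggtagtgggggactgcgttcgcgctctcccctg
Gm23238: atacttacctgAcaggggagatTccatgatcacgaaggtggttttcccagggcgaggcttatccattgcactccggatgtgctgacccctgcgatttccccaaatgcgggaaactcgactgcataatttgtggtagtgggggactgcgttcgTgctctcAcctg
Rnu1a1 lies at chr11:87422867-87423030 (plus strand). Gm22513 (T60C, chr12:54696782-54696945, plus strand) had 431 counts in replicate 1 and 634 in replicate 2, with a posterior SD of 0.610 and 1.02 counts. Gm24305 (A26G, chr12:54734555-54734718, minus strand) had 45.0 and 194 counts. Gm23238 (G12A, A23T, C153T and C160A, chr19:18732741-18732904, plus strand) had 376 and 230. The log2 ratios were 0.61 (95% interval 0.43 to 0.79), 2.14 (1.69 to 2.66) and -0.66 (-0.90 to -0.42). Gm24305 had the highest and Gm23238 the lowest ratio among the 47 members counted at 100 or more on average. Both had reads divided with similar copies, with a posterior SD of 24.4 and 44.1 counts for Gm24305 and of 56.2 and 48.7 for Gm23238. Their sum, formed after their values were seen, was 421 and 423 counts, with a log2 ratio of 0.06 (-0.14 to 0.26). It joins the highest and the lowest of these ratios, so an offset was built into it. Whether reads were divided between these entries, rather than with other U1 copies, was not tested.

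Each of the 7 identical U1 entries was given 368 counts in replicate 1 and 496 in replicate 2, with a posterior SD of 147 to 451 and 290 to 497 counts. An entry's count on its own is thus barely determined, while their sum was 2573 and 3470 counts, a log2 ratio of 0.48 (95% interval 0.41 to 0.56). All 10 entries of 164 nt summed to 3426 and 4527 counts, or 2094 and 2604 TPM. Gm22614 and Gm25890, a pair of identical 165-nt entries on chromosome 3 that aligned to Rnu1a1 at 96.4% identity, had 55.2 and 70.4 counts each.

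U2 snRNA pairs with the branch point of the intron through its GTAGTA stretch, which 10 of the 26 snRNA members carried, against 35 of 1141 unmeasured snRNA genes over 100 nt (3.07%). All 10 were 191 nt long. Rnu2-10 (chr11:101658238-101658428, plus strand), Gm23849, Gm23971 and Gm24950 were identical, and the pair Gm23444 and Gm23472 differed from it only by G109C. The 3 sequences that held most of the U2 counts follow, with GTAGTA in capitals in Rnu2-10 and the differing bases in capitals in the others:
Rnu2-10: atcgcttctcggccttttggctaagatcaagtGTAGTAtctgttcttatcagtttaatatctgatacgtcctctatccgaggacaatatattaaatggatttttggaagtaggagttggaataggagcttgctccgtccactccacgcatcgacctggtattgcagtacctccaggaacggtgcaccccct
Gm23444: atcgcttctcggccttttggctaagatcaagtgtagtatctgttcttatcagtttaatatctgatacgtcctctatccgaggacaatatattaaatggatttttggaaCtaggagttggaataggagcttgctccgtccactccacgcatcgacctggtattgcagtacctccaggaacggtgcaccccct
Gm25939: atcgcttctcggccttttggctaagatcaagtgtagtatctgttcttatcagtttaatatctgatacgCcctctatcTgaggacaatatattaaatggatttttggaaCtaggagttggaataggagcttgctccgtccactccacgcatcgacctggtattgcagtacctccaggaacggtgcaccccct
The 4 entries of the Rnu2-10 sequence had 1041 counts each in replicate 1 and 1344 in replicate 2. Gm23444 (chr11:83271498-83271688, plus strand) and Gm23472 had 1732 and 2240 each. Gm25939 (T69C, C78T and G109C, chr1:72255008-72255198, plus strand) had 524 and 634 counts with a posterior SD of 1.82 and 2.20. Sharing with other reference copies thus left little uncertainty in its count. That SD covers sharing among reference sequences only, and bases at which the Cast strain differs from the reference were not examined. Summed, the 10 entries had 8233 and 10589 counts, a log2 ratio of 0.41 (95% interval 0.37 to 0.46), and 3538 and 4284 TPM. The summed TPM of the U2 entries was 1.69 times that of the 164-nt U1 entries in replicate 1 and 1.65 times in replicate 2. These values depend on the RSEM effective lengths, 91 nt for Rnu2-10 and 64 nt for Rnu1a1, and are not ratios of counts. Of the rarer U2 variants, Gm25360 (C78T, A95G, G109C and C154T) had 45.0 and 54.0 counts, Gm24497 (G109C and C186A) 25.2 and 24.97, and Gm26316 (C170T) 12.2 and 19.6. The posterior SD of Gm24497 was 533 and 789 counts, so its own level is not determined.

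The remaining snRNA members were Gm24265, Gm24407, Rnu12 and Gm25541. Gm24265 and Gm24407 are 141-nt neighbours on chromosome 5 that differ by G88A and C99A, counted from the 5′ end of Gm24265, and had 521 and 532 counts and 360 and 433 counts. Gm25541 had 21 and 25 counts. Rnu12, the U12 RNA of the minor spliceosome, had 23 and 28 counts, or 18.9 ± 1.82 TPM (SD, n = 2). The stretch ATTTNTG, a pattern of the site to which the ring of Sm proteins binds, was found in 25 of 26 snRNA members and in 215 of 1141 unmeasured snRNA genes over 100 nt (18.8%). In 25 of 26 snRNA entries, or 14 of 15 distinct sequences, the log2 ratio was above 0, beside 50.0% of all counted genes. Their sum was higher in replicate 2 by 0.41 (95% interval 0.38 to 0.44). The 13 listed U1, U2 and Sm proteins were all measured, with a median of 21.2 ± 1.41 TPM (SD, n = 2). Snrpb, a core Sm protein, was highest at 59.3 ± 3.65 TPM, and Snrnp70, a protein of the U1 particle, had 31.1 ± 2.81 TPM. None of these 13 proteins was 1.5-fold apart, with a median log2 ratio of 0.03. For 13 listed factors and polymerase subunits that transcribe snRNA and Pol III genes the median was 4.51 ± 0.424 TPM, with Maf1, a repressor of Pol III, highest at 51.6 ± 1.61 TPM and Polr3gl next at 25.9 ± 0.940 TPM. One of them, Polr3g, was at least 1.5-fold lower in replicate 2, with 43 counts there and 91 in replicate 1.

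U3 is the box C/D snoRNA that pairs with the ribosomal RNA precursor and is needed for the early cleavages that release 18S rRNA. The annotation gives Rnu3b1 to Rnu3b4 on chromosome 11 as 2 entries each, of 216 and 215 nt, that start at the same base and differ by 1 base at the end. The 216-nt entries had 423 counts each in replicate 1 and 530 in replicate 2. The 215-nt entries had 0.1 counts each in replicate 1 and 77.2 in replicate 2, with a posterior SD of 78.8 to 125 and 120 to 183 counts. No fold is given for the 215-nt entries, since replicate 1 was at the floor and the posterior SD exceeded the count. The 8 entries together had 1691 and 2429 counts, a log2 ratio of 0.57 (95% interval 0.48 to 0.66). Rnu3a on chromosome 10, which aligned to Rnu3b1 at 86.0% identity, had 98.0 and 172 counts, a log2 ratio of 0.86 (0.50 to 1.24), with a posterior SD of 28.6 and 52.5.

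The other named box C/D members were Snord15b, Snord17, Snord15a and Snord22. The 2 best counted of them are printed, with TGATGA in the first 20 bases (box C) and CTGA in the last 20 bases (box D) in capitals:
Snord15b: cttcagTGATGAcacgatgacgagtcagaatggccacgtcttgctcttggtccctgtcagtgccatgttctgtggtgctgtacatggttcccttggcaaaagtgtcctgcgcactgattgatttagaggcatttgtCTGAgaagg
Snord17: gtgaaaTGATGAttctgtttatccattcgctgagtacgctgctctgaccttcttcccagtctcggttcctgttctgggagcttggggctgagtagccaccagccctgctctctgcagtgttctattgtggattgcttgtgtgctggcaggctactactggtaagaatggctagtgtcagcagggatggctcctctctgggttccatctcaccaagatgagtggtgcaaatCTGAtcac
Snord15b (chr7:99479563-99479707, minus strand) lies in Rps3 and is contained whole in an annotated Rps3 transcript. It had 241 counts in replicate 1 and 183 in replicate 2, and was lower in replicate 2 by a log2 ratio of -0.35 (95% interval -0.63 to -0.06). Snord17 (chr2:144265979-144266216, minus strand) lies in an intron of Snx5 and had 151 and 188 counts, a ratio of 0.37 (0.05 to 0.69). Snord15a, also in Rps3, had 65 and 61 counts, and Snord22, in Snhg1, had 33.8 in both libraries. TGATGA in that window was found in 7 of 49 snoRNA members and in 12 of 999 unmeasured snoRNA genes over 100 nt (1.201%), and CTGA in 19 of 49 against 13.0%. The 5 listed box C/D proteins had a median of 10.7 ± 0.537 TPM, led by Snu13, which binds the C/D motif, at 19.9 ± 0.0141 TPM and Nop56 at 15.3 ± 0.163 TPM.

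Among box H/ACA RNAs the highest counts were those of Snora73b, Snora73a and Snora74a. Snora73 (U17) acts in 18S rRNA maturation, and both copies lie in Snhg3 on the minus strand of chromosome 4, Snora73b at chr4:132352322-132352526 and Snora73a at chr4:132352775-132352979. They are shown because 7 substitutions in 205 nt separate the copies: G3A, G54A, A111G, T164C, G203A, T204A and T205A from Snora73a to Snora73b. Against the reference sequences, sharing of reads left little uncertainty in their counts, with a posterior SD of 4.76 to 5.58 counts. Capitals mark the ACA box, 3 bases before the end:
Snora73a: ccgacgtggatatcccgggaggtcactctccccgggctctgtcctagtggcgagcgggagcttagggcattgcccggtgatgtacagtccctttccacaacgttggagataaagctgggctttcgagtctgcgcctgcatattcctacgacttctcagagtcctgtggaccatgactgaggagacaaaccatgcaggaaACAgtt
Snora73b: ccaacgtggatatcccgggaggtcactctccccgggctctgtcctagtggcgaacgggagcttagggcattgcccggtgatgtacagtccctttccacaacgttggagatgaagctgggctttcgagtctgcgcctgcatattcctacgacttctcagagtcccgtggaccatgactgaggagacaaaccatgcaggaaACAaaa
Snora73b had 614 counts in replicate 1 and 642 in replicate 2, and Snora73a had 508 and 529. Their levels were 226.8 ± 2.46 and 187 ± 2.86 TPM (SD, n = 2). The spread between libraries was smaller than the difference between the copies. Gm26448, a 203-nt entry in an intron of Rpsa that aligned to Snora73a at 88.2% identity over 204 nt, had 169 and 242 counts, higher in replicate 2 by 0.57 (95% interval 0.28 to 0.86). Snora74a had 424 and 429 counts. ACA at that distance from the end was found in 23 of 49 snoRNA members against 233 of 999 unmeasured snoRNA genes over 100 nt (23.3%), in 5 of 10 scaRNA members against 20 of 37 (54.1%), and in 0 of 26 snRNA members.

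The H/ACA entries had no common direction between libraries, since 5 of 10 had a ratio above 0 and their sum was 1787 and 1802 counts, a log2 ratio of 0.06 (95% interval -0.03 to 0.16). For 4 of the 10, Snora74a in AC121821.1 among them, an annotated transcript of the host contains the whole snoRNA. Snora44 and Snora61 in Snhg12 had 33.7 and 21.6 counts and 17.4 and 8.68 counts, and Snora68 had 37.3 and 17.5. Snora68 was lower in replicate 2 by a log2 ratio of -1.02 (-1.99 to -0.21), while the intervals of Snora44 and Snora61 included 0. The 6 listed box H/ACA proteins had a median of 10.0 ± 1.45 TPM, with Nop10 at 23.1 ± 0.346 TPM and Dkc1, the pseudouridine synthase, at 15.3 ± 3.44 TPM. Dkc1 was lower in replicate 2, with 510 counts there and 627 in replicate 1 and a log2 ratio of -0.25 (-0.42 to -0.08).

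The 25 snoRNA entries without a named family, 17 of them with a ratio above 0, had 1877 and 2292 counts in all. Gm26447, within an annotated exon of Eif4a2, had 496 ± 9.55 TPM and a log2 ratio of 0.10 (95% interval -0.11 to 0.31). Gm22988 in Eif4a1 had 334.9 ± 60.6 TPM and was higher in replicate 2 by 0.51 (0.30 to 0.72), and Gm25291 in an intron of Sec24a, with 103 and 145 counts, by 0.54 (0.17 to 0.92). Counts of these entries were thus even in some and higher in replicate 2 in others. No role is given for entries of this kind.

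The summed scaRNA entries had 4996 counts in replicate 1 and 5194 in replicate 2. Scarna2 (chr3:108554338-108554751, minus strand), which guides methylation of U2 in human cells, had 1790 and 1820 counts and no host gene. Scarna10 (chr6:125186359-125186683, minus strand), in Ncapd2, had 1170 and 1198, Gm22009 in an intron of Kpna4 had 722 in both libraries, and Scarna13 in Snhg10 had 424 and 423. Their log2 ratios were 0.08, 0.09, 0.05 and 0.05, each with an interval that included 0. Gm25395 and Scarna6, neighbours in introns of Atg16l1, had 483 and 580 counts and 249 and 295, with ratios of 0.32 (95% interval 0.14 to 0.49) and 0.30 (0.05 to 0.55). Coil, the marker protein of Cajal bodies, had 1.72 ± 0.134 TPM and Wrap53, which brings scaRNAs there, 1.68 ± 0.262 TPM (SD, n = 2 each). Over all lists of partner proteins, 68 of 69 annotated genes were counted, 2 were at least 1.5-fold higher and 1 was at least 1.5-fold lower in replicate 2, and the median log2 ratio was 0.02.

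The annotation has 3 Y and vault RNA genes, and the vault RNA Vaultrc5 was the only one of these that was a member, with 25 and 28 counts. The Y RNA Rny1 (112 nt) had 3 and 5 counts, which the effective length turned into 9.78 and 15.3 TPM, and Rny3 (102 nt) had 0. The telomerase RNA Terc (423 nt) had 1 and 5 counts. Mvp, the major vault protein, had 18.8 ± 3.80 TPM and Parp4 6.80 ± 0.643 TPM, and of the Y RNA and La proteins Ssb had 21.6 ± 2.11 TPM and Trove2 1.34 ± 0.0212 TPM. At the count minimum, Gm22767 had 12 and 8 counts, Gm24336 8 and 14 and Gm22362 13 and 11. Just below it were Gm25117 with 8 and 11, Gm28006 with 10.2 and 8.79 and Mir1949, annotated in the same biotypes, with 4.94 and 13.8.

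The share of annotated genes that were members rose with annotated length up to 216 nt and was lower beyond it. None of the 739 genes of 100 nt or less had a count in either library, and their effective length in that table is 0. This removes 87 of 98 annotated Snord genes, whereas none of the 42 Snora genes is that short. Of 1040 genes of 101 to 120 nt 1 was a member (0.0962%), of 911 genes of 121 to 140 nt 23 were (2.52%), of 334 genes of 141 to 180 nt 29 were (8.68%), and of 105 genes of 181 to 216 nt 26 were (24.8%). Those 26 include the 10 U2 and the 8 Rnu3b entries, among which are copies of the same sequence. The edge at 216 nt was taken from the comparison with the kallisto-layout table given below. Above 216 nt the share was 4.08% at 217 to 250 nt, 5.85% at 251 to 300 nt and 4.40% beyond. The shortest member had 110 nt, the median 165 and the longest 414. Of the 2786 genes over 100 nt, 2571 had 0 counts in both libraries. A count of 0 for an entry of 100 nt or less thus says nothing about its RNA.

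**Figure D2:**
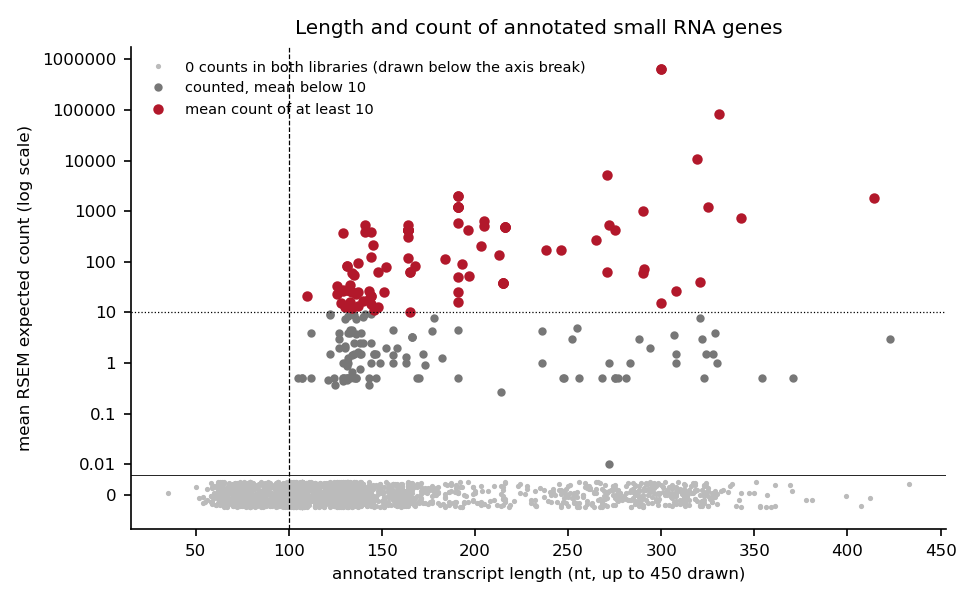
Mean RSEM expected count (log axis, with entries at 0 scattered below the line) against annotated transcript length for genes of the 5 biotypes up to 450 nt. The dashed line marks 100 nt and the dotted line the minimum of 10 counts. No gene of 100 nt or less has a count, and members begin at 110 nt.

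A separate table in the layout of kallisto, with its own estimated counts, effective lengths and TPM, gave a different account of the same libraries. Of the members, 85 of 99 had an RSEM TPM at least 2-fold above the kallisto-layout TPM, where 2.57% of 14361 genes did, and 2 of 99 were at least 2-fold below it, where 0.954% did. The members were selected on RSEM counts, so the first count is partly fixed by the choice. The difference went with length. The boundary of 216 nt was taken from these values, just below the shortest member with a mean estimated count of at least 1. By that choice all 79 members of 216 nt or less had a mean kallisto-layout estimated count below 1, the highest being 0.5. Of the 20 longer members 2 were also below 1. These 79 members held 18575 RSEM counts in replicate 1 and 23260 in replicate 2, against 7 and 2.78 estimated counts. Among genes of other biotypes with 10 or more RSEM counts, 20 of 21 with no transcript over 216 nt were below 1. So were 6 of 8 whose longest transcript had 217 to 250 nt and 8 of 14 at 251 to 300 nt, against 94 of 14214 longer than 300 nt. In these genes the low estimated counts thus reached beyond 216 nt. The exception among the 21 was mt-Atp8 (204 nt), with 14053 and 15847 RSEM counts and 42.0 and 10.0 estimated counts. A mean of 10 estimated counts was reached by 16 genes of these biotypes, of which 15 were members and the other was Gm26315. No U1, U2, U3, U12, Snora or vault member was among them.

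**Figure D3:**
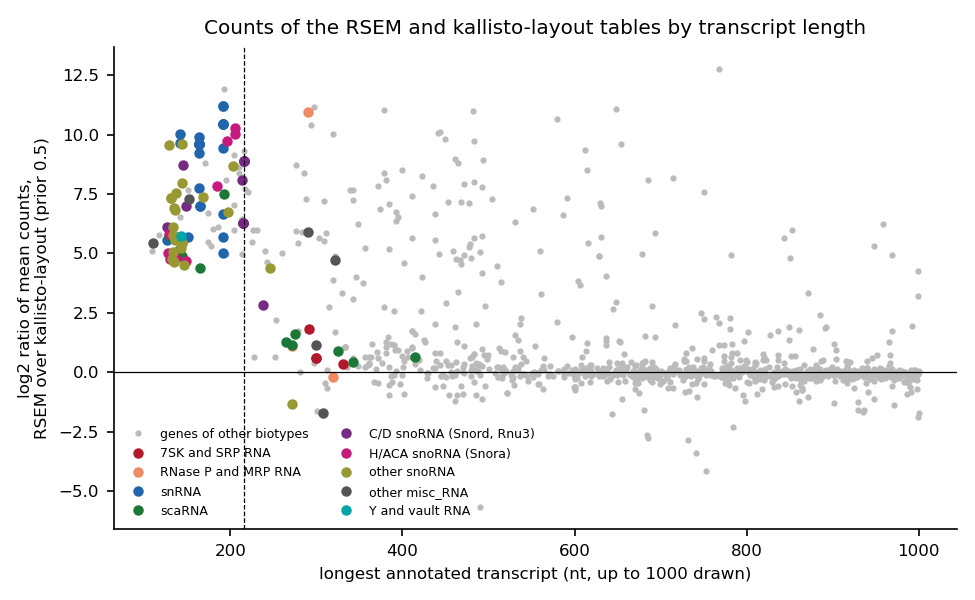
Log2 ratio of mean counts, RSEM over kallisto-layout with a prior of 0.5, against the longest annotated transcript, up to 1000 nt, for members by class and for other counted genes in grey. The dashed line marks 216 nt, a boundary taken from the values of these members. To its left the members lie far above 0, and to its right most lie nearer 0.

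For the 15 members counted in both tables, counts and effective lengths both differed. RSEM counts were higher in 12 of 15, with a median log2 ratio of 0.65, and the RSEM effective lengths were longer in 15 of 15, with a median log2 ratio of 0.96. The median log2 ratio of TPM was 0.21, beside 0.01 over 14026 genes counted in both tables, and 8 of 15 were higher in RSEM. Rn7s1 had 648928 RSEM and 423801 estimated counts on average, with an effective length of 200 nt in the RSEM table and of 97.5 and 109 nt in the kallisto-layout table. Its levels came out at 122810 ± 12172 RSEM TPM and 126643 ± 5182 kallisto-layout TPM (SD, n = 2 each), so they differed by less than the spread between libraries. Rpph1 had 10785 RSEM and 12397 estimated counts on average, and its TPM was lower in RSEM by a log2 ratio of -0.84. Rmrp had 5169 and 2410 counts, and its RSEM TPM was higher by 0.41. Scarna2, Scarna10, Gm25395, Scarna6 and Scarna13 were higher in RSEM TPM by 0.21, 0.27, 0.46, 0.58 and 0.91, in that order, while Gm22009 differed by -0.18.

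Some members above 216 nt also differed between the tables. Rprl3 had 994 and 989 RSEM counts and 0 estimated counts in both libraries. Rpph1, 86.0% identical to it over 257 nt, was the member whose estimated counts exceeded the RSEM counts by most reads. The sum of both genes was 10732 and 12821 RSEM counts against 11100 and 13693 estimated counts. Whether reads of one were counted for the other was not tested. For Rn7sk, Gm24146 and Gm26035 the sums were further apart, with 77229 and 90646 RSEM counts against 64201 and 66326 estimated counts. Gm26035 had a mean of 26.6 RSEM and 88.9 estimated counts, and Gm23547, which overlaps an exon of Phb2, had 63.0 and 158. These were the 2 members at least 2-fold lower in RSEM TPM, by log2 ratios of -2.37 and -1.98 with a pseudocount of 0.1. Snord17 had 151 and 188 RSEM counts but 47.0 and 0 estimated counts in replicates 1 and 2. The 5 members with the highest RSEM over kallisto-layout ratio were Gm26447, Gm24265, Gm24407, Gm22988 and Gm23472, all of 129 to 191 nt with 334.9 to 825.3 RSEM TPM.

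Between the libraries, 77 of 99 members had a log2 ratio of replicate 2 over replicate 1 above 0, with a median of 0.32, beside 50.0% of all counted genes and a median of 0.00 over them. Copies of one sequence carry the same value, and summed by sequence 59 of 81 were above 0 with a median of 0.12. Among all 99, 16 were at least 1.5-fold higher in replicate 2, where 4.3% of all genes were, and 3 were at least 1.5-fold lower, where 4.7% were. The 16 include the 215-nt Rnu3b entries, whose ratio is set by the prior count, and 12 of the other 95 members were higher. The share falls with the count, and among members with 100 or more counts on average it was 5 of 47, beside 1.22% of 9741 genes. These 5 were Gm24305, Rnu3a, Gm24119, Gm22513 and Gm23238. Gm24119, in an intron of Slc25a3, had 131 and 207 counts, a ratio of 0.71 (95% interval 0.39 to 1.04). For members with means of 10 to 30 it was 10 of 29, beside 39.3% of genes of that range, so weakly counted members did not stand out. Reads were divided, with a posterior SD over 5% of the count in either library, for 34 members, and 11 of these were 1.5-fold apart against 8 of the 65 others. The 65 had a median ratio of 0.11. They include Rn7s1 and Rn7s2, whose posterior SD was below 5% of the count although their reads were split evenly.

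**Figure D4:**
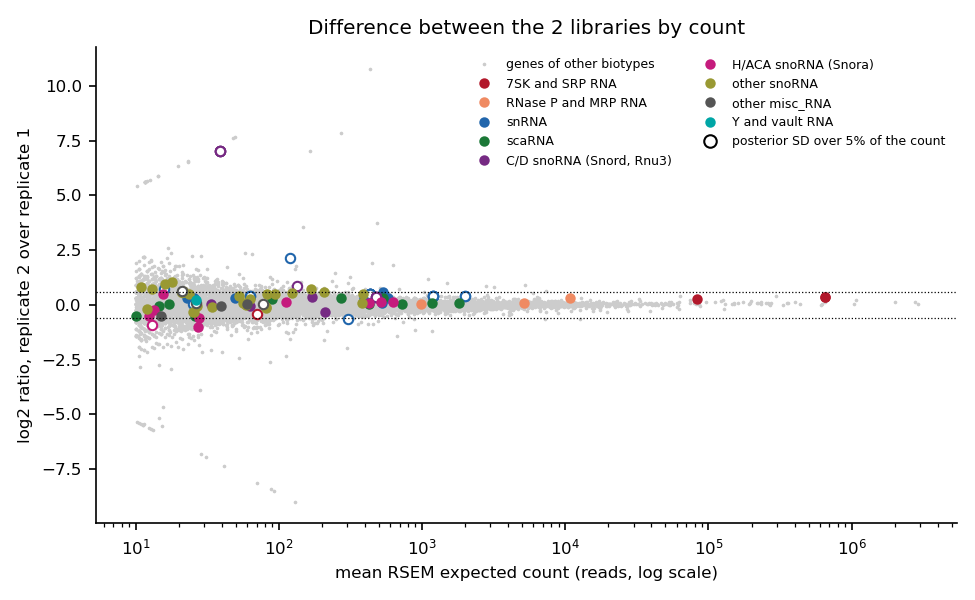
Log2 ratio of replicate 2 over replicate 1 after TMM scaling against mean RSEM expected count (log axis), for members by class and for genes of other biotypes in grey. Open points are members with a posterior SD above 5% of the count, and dotted lines mark 1.5-fold. The 7SL, 7SK and Rpph1 points lie above 0 at high count, and the open points near 7 are the 215-nt U3 entries, whose ratio depends on the prior count.

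By class, summed counts were higher in replicate 2 by a log2 ratio of 0.34 (95% interval 0.33 to 0.34) for 7SK and SRP RNA, 0.41 (0.38 to 0.44) for snRNA, 0.59 (0.50 to 0.68) for the 9 U3 entries, 0.34 (0.25 to 0.43) for other snoRNA and 0.24 (0.21 to 0.27) for RNase P and MRP RNA, against 0.11 (0.05 to 0.16) for scaRNA. The U3 sum includes the 215-nt entries, and all 13 box C/D entries gave 0.48 (0.40 to 0.56). The ratio was 0.06 (-0.03 to 0.16) for H/ACA snoRNA, 0.05 (-0.21 to 0.32) for other misc_RNA and 0.21 (-0.62 to 1.05) for Vaultrc5. The 4 Snord members summed to 490.6 counts in replicate 1 and 465 in replicate 2, with a ratio of -0.02 (-0.21 to 0.16). The size depends on the unit, and over all counted genes the median log2 ratio of RSEM TPM was -0.13. On RSEM TPM, Rn7s1 was higher in replicate 2 by 0.20 and Rn7sk by 0.14, whereas on kallisto-layout TPM Rn7s1 was higher by 0.08 and Rn7sk had a ratio of -0.07. The kallisto-layout counts gave 0.33 for Rn7s1, 0.11 for Rn7sk and 0.37 for Rpph1 after TMM scaling. On kallisto-layout TPM the median over all counted genes was -0.08, so Rn7sk lay at that median there. The kallisto-layout effective length of short entries also differed between the libraries. In replicates 1 and 2 it was 50.0 and 63.5 nt for Rnu2-10, 43.0 and 55.3 nt for Rnu1a1, and 57.8 and 71.9 nt for the 216-nt Rnu3b1. For the 414-nt Scarna2 it was 190 and 188 nt. Whether this bears on the count ratios of the short members was not tested. With 2 libraries, a difference between animals and one between RNA preparations or libraries cannot be told apart.

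Of the 59 snoRNA and scaRNA members, 55 lie on the same strand inside 42 genes of another biotype. In 38 of these the member is in an intron and in 17 it overlaps an annotated exon. The hosts included 5 ribosomal protein genes, Rps3, Rpsa, Rpl23 and Rpl5 among them, 4 genes of translation factors (Eif4a1, Eif4a2, Eif4g2 and Pabpc4) and 6 Snhg genes, the non-coding hosts of snoRNAs. The other 27 hosts included Tex14, whose annotated span of the chromosome 11 cluster covers the 8 Rnu3b entries and which was at 0.005 TPM. Ybx3 was the highest host at 857.7 TPM and the median host had 19.8 TPM. Among 289 annotated snoRNA and scaRNA genes over 120 nt with a host, hosts of the 55 members had a median of 13.5 TPM, against 4.07 TPM for hosts of the 234 that were not members. Hosts were below 1 TPM for 8 of 55 members and for 84 of 234 others.

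Across the members, host level and snoRNA count, which also depends on length, had little rank relation. Spearman's rho of mean count with host TPM was -0.08 over the 55 pairs and 0.07 over the 47 pairs without Rnu3b entries. Pairs that share a host are not independent. The members were chosen by this same count, which cuts its range, so rho says nothing about hosted genes below the minimum. Gm22362 had a level of 13.4 TPM in Ybx3, at 857.7 TPM, while Scarna13 had 91.9 TPM in Snhg10, at 1.05 TPM. The replicate ratios of host and member had a rho of -0.11 over the 55 pairs and of 0.22 over the 47, and 2 of 42 hosts were 1.5-fold apart. For 13 members the whole sequence is contained in an annotated transcript of another biotype, so that a read of the host can be divided with the member; among them were Snord15b, Gm22988 in Eif4a1 with 329 and 451 counts, Gm26447 in Eif4a2 with 373 and 385, and Gm27533 and Gm27505 in Neat1. Gm27533 had 77.5 and 77.3 counts with a posterior SD of 13.7 and 14.3. In all, 7 members overlap a gene on the opposite strand: Rmrp, Snora73a, Snora73b, Gm23238, Snora23, Snora57 and Snora78. Although the kit marks strand, no source says whether counting used it. The reads of these members and those of the partner gene thus cannot be told apart, a limit on their counts given above.

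**Figure D5:**
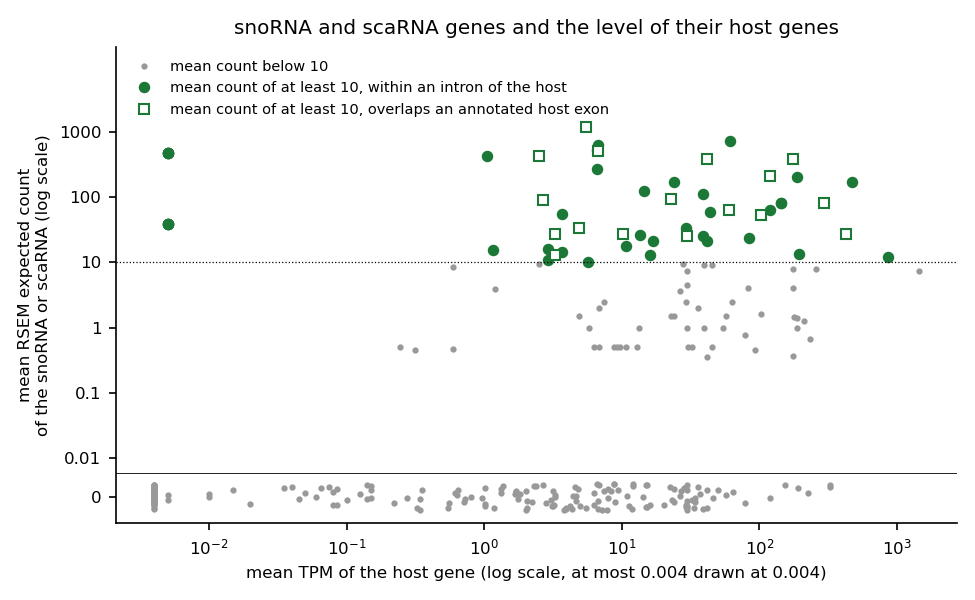
Mean RSEM expected count of snoRNA and scaRNA genes over 120 nt (log axis, with entries at 0 below the line) against the mean TPM of the host gene (log axis, levels up to 0.004 drawn at 0.004). Circles are members in an intron of the host, squares members that overlap an annotated exon, and grey points genes below 10 counts. Members are spread over hosts of 1.05 to 857.7 TPM, apart from the Rnu3b entries at the left.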

How the data were processed

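Total RNA of 2 gastrocnemius libraries was profiled. A column kit gave the RNA, of which 300 ng entered a directional, ribosomal RNA-reduced library, per the labels' protocols. Builds are mm10 and GENCODE M21 per the file descriptions; the aligner and program versions are not stated in the sources used here. The authors' gene tables give TPM and expected counts, where reads matching more than one gene are split, with a posterior SD, per the file headers. The deposited kallisto-layout tables hold estimated counts and TPM. The 86 genes absent there were taken as 0.

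Ratios between libraries used expected counts, rounded for scaling, TMM factors from edgeR 4.0.16, and a prior of 0.5. TPM ratios used a pseudocount of 0.1. Intervals are exact binomial (Clopper-Pearson, 95%) on rounded counts. Reads are not independent molecules, so they cover counting error only. Alignments used blastn 2.17.0. Alternatives used DESeq2 1.42.0 size factors, library totals, TPM, other minimums and either table. Sequences and coordinates are from the GENCODE transcripts and annotation, 1-based, and sequences on chromosome 18 are not printed. These are reference sequences, and bases at which the mice differ from them were not examined. Scripts were tested on simulated data.

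The members, the gene lists and the naming rule were chosen with earlier results of these data known. The rule names the 20 highest counts, the 3 highest per class, the 5 highest and lowest ratios between libraries (means of at least 100 counts) and between tables (at least 1 TPM), and 3 genes on either side of the minimum. Other genes were named after their values were seen. Some items are not reported here.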

Additional observations from a re-analysis of the deposited data

How the results depend on the processing

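The number of members was 85 to 111 with minimums of 20 and 5 counts, 92 with 10 counts in each library, and 97 to 102 with 1 library left out. It was 16 on the estimated counts of the kallisto-layout table. The members' share of counts was 4.04% and fell to 2.45% on that table, with 3.65% to 4.42% from single libraries. Their share of TPM was 27.7% in both tables and 25.8% to 29.6% from single libraries. It was 21.8% when the full annotated length replaced the effective length, an alternative added after seeing the data. The median log2 ratio between libraries was 0.18 to 0.38 under the other scalings, minimum and prior, 0.11 without divided reads, 0.12 with identical sequences summed, and 0.066 for the 15 members counted in the kallisto-layout table. The same 15 members had a median of 0.25 on RSEM counts. The number of members 1.5-fold apart was 13 to 19 under other scalings or prior and 16 with identical sequences summed. It was 15 without the 4 entries below 3 counts in a library, also added after seeing the data. It was 8 without the members with divided reads, a smaller set that leaves out the U3 entries, and 1 of 15 in the kallisto-layout table. That 1 was Snord17, and on RSEM counts the log2 ratios of those 15 ran from -0.40 to 0.37. These alternatives without divided reads or with summed sequences were added after seeing the data. RSEM TPM was 2-fold above the other table for 80 to 86 members and counts for 90, and 2 were 2-fold below it under each alternative tried. Of 47 named genes, 40 were lower and 7 higher in the kallisto-layout table, and 2 moved by less than 1 SD between libraries. No paired analysis was possible because the series has 1 group. Members of 10 to 30 counts have wide counting intervals, and outlier checks need more than 2 libraries.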
